A study of Drosophila melanogaster with 8 samples.

Results

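The resting transcriptome of mature enterocytes was described from the 2 control (Ctrl) libraries of a Drosophila melanogaster RNA-seq series, chosen by their group label out of 8 libraries in all. The other 6 libraries were 3 with an activator form of the transcription factor Shavenbaby (SvbAct) and 3 with a hairpin against it (RNAiSvb). They came from the same driver flies crossed to UAS-SvbACT::GFP or UAS-SvbRNAi, with the same sex, age and induction. They are used only as ranges beside the Ctrl values. A range over them mixes any effect of the transgenes with the spread between preparations, and these cannot be told apart. The Ctrl females carried MyoIA-Gal4, UAS-GFP/+; tubGal80TS/+, from driver flies crossed to Canton-S, so they had the enterocyte driver, the GFP reporter and the temperature-sensitive Gal80 repressor that all groups share, and no Svb transgene. Virgin females were kept for 3 days at room temperature and for 6 days at 29 °C, and were dissected at 9 days of age.

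Each library came from a batch of more than 20 females, so an animal is not a replicate here, and the replicates were made on different calendar days per the series text. Posterior midguts (R3, R4 and R5) without hindgut and Malpighian tubules were digested with TrypLE for 10 min at 37 °C. Patches of joined enterocytes held back by a 70 µm strainer were collected, while single cells passed through it. The patches were a preparation by size and adhesion, not a sort on GFP. One strain label says that the transgenes were switched on in ISCs (intestinal stem cells), whereas the genotype and growth protocol name the MyoIA driver, which is used in enterocytes. The genotype was followed.

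Enterocytes are the large polyploid absorptive cells of the fly gut. They secrete digestive enzymes, take up the products through an apical brush border built on actin and unconventional myosins, and seal the epithelium with smooth septate junctions. They arise from stem cells through enteroblasts and lie beside hormone-secreting enteroendocrine cells, with visceral muscle and trachea around the tube. The middle midgut also holds copper cells, which acidify the lumen, and iron cells, which store iron in ferritin.

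The table held 9177 genes, and total counts were 19403305 in Ctrl replicate 1 and 17628597 in Ctrl replicate 2. Levels of a gene are given as CPM (counts per 1000000 library counts, with TMM factors), always with replicate 1 first, and 1 CPM stood for 18.7 and 16.5 counts. Levels of different genes are compared as TPM, here counts per kb of merged exon scaled to the same total for each library, since a long gene collects more reads; a rank by CPM orders genes by their share of reads. Of all genes, 8742 had a count in both libraries, 270 in 1 of them and 165 in neither. A count of 0 allows a level of up to 0.161 and 0.181 CPM (3 counts). The libraries are 1 group of 2, so levels were described and no test was run.

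The counts were concentrated in few genes. The 10 most abundant genes of each library took 10.4% and 9.67% of its counts, the top 100 took 33.2% and 33.1%, and 294 and 299 genes together held 50% of them. Mean levels fell from 13235 CPM at rank 1 to 1379.8 CPM at rank 100, 215 CPM at rank 1000 and 13.8 CPM at rank 5000. A mean of at least 10 CPM was reached by 5539 genes and of at least 1000 CPM by 169.

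Digestive enzymes led the ranking. Of the 30 most abundant genes by mean CPM, 14 encode secreted or brush border enzymes of digestion, and these held 11.7% and 9.39% of all counts. They comprised 9 serine proteases (7.46% and 5.64%), 4 carboxypeptidases and aminopeptidases (3.64% and 3.20%) and 1 lipase (0.620% and 0.547%). The other 16 were 4 genes of the mitochondrial genome, 2 translation elongation factors, 3 cytoskeletal genes, both ferritin chains, the V-ATPase subunit Vha16-1, the RNA of RNase MRP and 3 genes to which no role is given here (CG12057, CG13492 and CG10911).

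**Figure D1:**
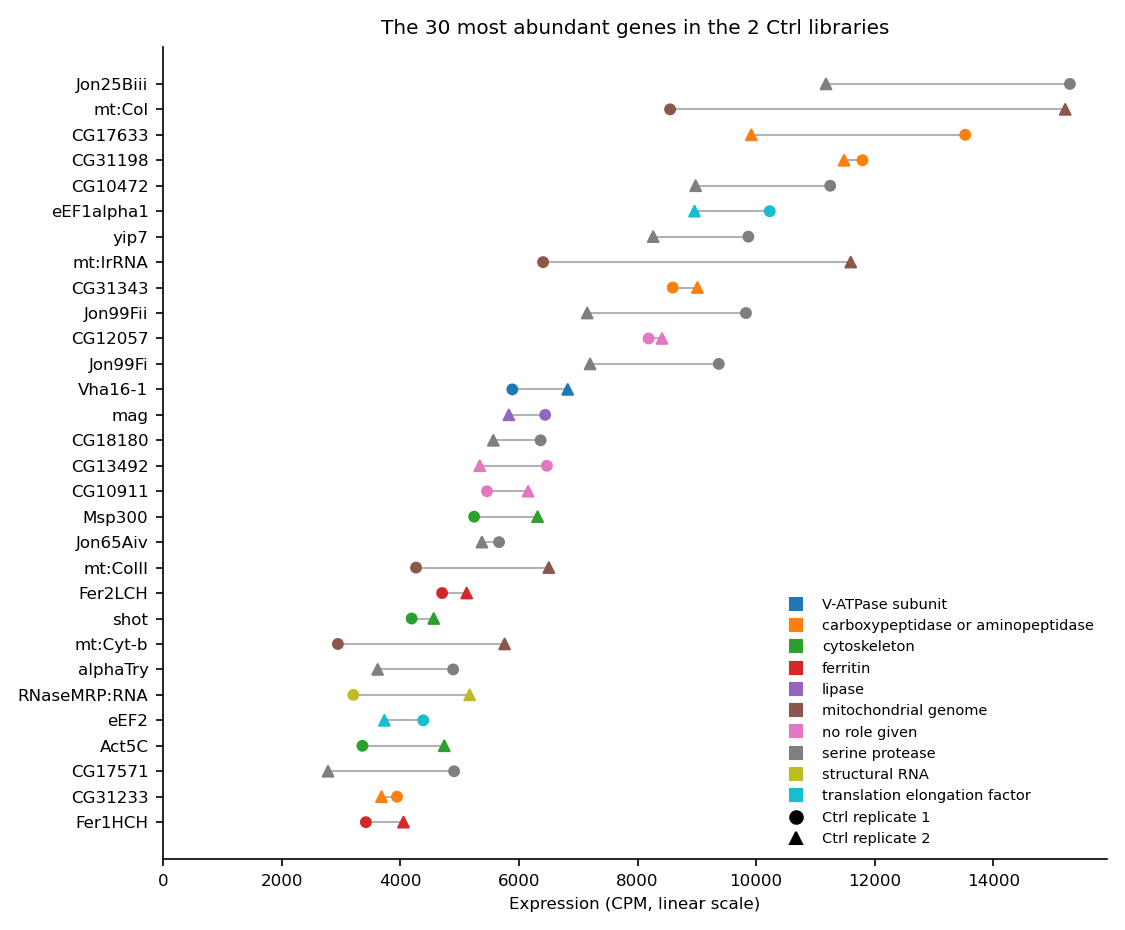
Expression of the 30 genes with the highest mean CPM in the Ctrl libraries, on a linear CPM axis, with a circle for replicate 1 and a triangle for replicate 2 joined by a line and coloured by class. Jon25Biii stands at the top with 15291 and 11178 CPM, all 9 serine proteases have their circle to the right, and the 4 mitochondrial genes have their triangle to the right.

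Jon25Biii (FBgn0031653, chromosome 2L, 4949941 to 4950767, minus strand, BDGP6.54), a Jonah protease, had the highest mean of all genes on either scale. It had 15291 and 11178 CPM, a mean of 13235 ± 2908 CPM (SD, n = 2), and 33168 and 23735 TPM. In replicate 2 alone it led on neither scale. There mt:CoI (15212 CPM), mt:lrRNA (11595 CPM) and CG31198 (11482 CPM) stood above it, and so did RNaseMRP:RNA by TPM (23763 TPM). Replicate 1 was the higher library for Jon25Biii, as it was for the Jonah genes Jon99Fii (9828 and 7152 CPM) and Jon99Fi (9370.0 and 7201 CPM), which lie beside each other on another chromosome. Jonah proteases are secreted chymotrypsin-like enzymes of the midgut lumen. All 16 members with a row summed to 5.19% and 4.02% of counts, and 8 of them stood among the 100 most abundant genes. At the low end, Jon25Bi stood at rank 5272 with 3.37 and 19.9 CPM. Jonah genes resemble each other closely, so reads could be split between copies and single members are uncertain.

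Several of the most abundant genes are neighbours on the chromosome. Among the 100 most abundant nuclear protein-coding genes, 21 lay within 10 kb of another of them, in 9 clusters. For the leading 100 by TPM the count was 24. Of all 8470 nuclear protein-coding genes, 8155 lay that close to another, but this larger set is denser and gives no baseline for 100 genes. Whether 21 exceeds the count for 100 genes drawn without regard to level was not tested. The clusters were not all of enzyme genes, since RpL6 with CycG and the ferritin chains were among them. One cluster on chromosome 3L (6033199 to 6040135) held CG10477, yip7 and Jon65Aiv, and the next (6050757 to 6062910) held Jon65Aiii, Jon65Aii and CG10472. On 3R, Jon99Fii and Jon99Fi lay at 30487016 to 30489895 and Jon99Ciii and Jon99Cii at 29922216 to 29924615. yip7 had 9869 and 8264 CPM and CG10472, whose exons overlap CG6592, had 11249 and 8979.9 CPM; both are serine proteases. CG18180 (6366 and 5568 CPM) and CG17571 (4907 and 2781 CPM), serine proteases as well, were also among the top 30.

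The trypsins, serine proteases that cut after basic residues, were led by alphaTry with 4892 and 3618 CPM. Next came thetaTry with 1162 and 1280.4 CPM and lambdaTry with 491 and 547 CPM. The 11 trypsin genes together held 0.806% and 0.650% of counts. Over the other 6 libraries they ran from 0.531% to 1.13%, a range that holds both Ctrl values. alphaTry belongs to a cluster of near-identical copies and its value is uncertain.

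Exopeptidases, which take residues from the ends of peptides, stood beside the proteases. CG17633 (FBgn0032144, chromosome 2L, 9769060 to 9770409, plus strand), a metallocarboxypeptidase whose exons overlap ppk18, had 13526 and 9919 CPM. The M1 aminopeptidases CG31198 (11793 and 11482 CPM), CG31343 (8594 and 9010.1 CPM) and CG31233 (3944 and 3683 CPM) form a cluster on 3R (21745266 to 21757758) and differed by less than 10% between the libraries. The carboxypeptidases CG8562 and CG8560, side by side on 3L (7398285 to 7404181), had 2321 and 1997 CPM and 2199 and 1932 CPM.

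The lipase mag (Magro), which acts on triglycerides and sterol esters in the gut, had 6443 and 5831 CPM, against 23.98 and 27.20 CPM for Lip4, the only other lipase of a list of 5 with a row. Per length this was a mean of 7379 TPM for mag and 19.2 TPM for Lip4. In the other 6 libraries mag ran from 806 to 4448 CPM, below both Ctrl values. The 12 amylases and maltases summed to 0.315% and 0.288% of counts, led by the maltase Mal-A1 (1043 and 1129 CPM, overlapping Cyp4e1) and the amylase Amy-p (773 and 613 CPM). Amy-p and Amy-d (202 and 232 CPM) are near-identical and their split is uncertain. Over the other 6 libraries the amylases and maltases ran from 0.387% to 1.25% of counts, above both Ctrl values.

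Alkaline phosphatases differed widely among themselves. The 8 genes summed to 2547 and 2402 CPM, against 711 to 1380 CPM in the other 6 libraries. Alp5, Alp6, Alp10 and Alp9 ranged from 456 to 852 CPM over both libraries. Alp4 had 14 and 487 counts and Alp2 had 0 and 322 counts. Alp4 and Alp2 were seen almost solely in replicate 2, and neither exceeded 0.495 CPM in the other 6 libraries.

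Genes of protein synthesis were next. The 79 cytosolic ribosomal protein genes had the largest share of the families and lists summed here and held 6.84% and 5.66% of counts, or 12.6% of counts per kb on average, since they are short. RpL3 led them with 3086 and 2183 CPM, and 73 of the 79 were among the 1000 most abundant genes. The elongation factor eEF1alpha1, which brings aminoacyl-tRNA to the ribosome, had 10229 and 8960.3 CPM, and eEF2, which moves the ribosome along, had 4387 and 3732 CPM. On the TPM scale the mean was 6916 for eEF1alpha1 and 1.07 for its paralogue eEF1alpha2. The 32 aminoacyl-tRNA synthetase genes, which charge tRNAs, held 0.226% and 0.187% of counts. RpL3 overlaps asRNA:CR31144, ATPsynbeta overlaps CG11076 and ATPsynC overlaps mir-4949, so their counts are uncertain to that extent.

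**Figure D2:**
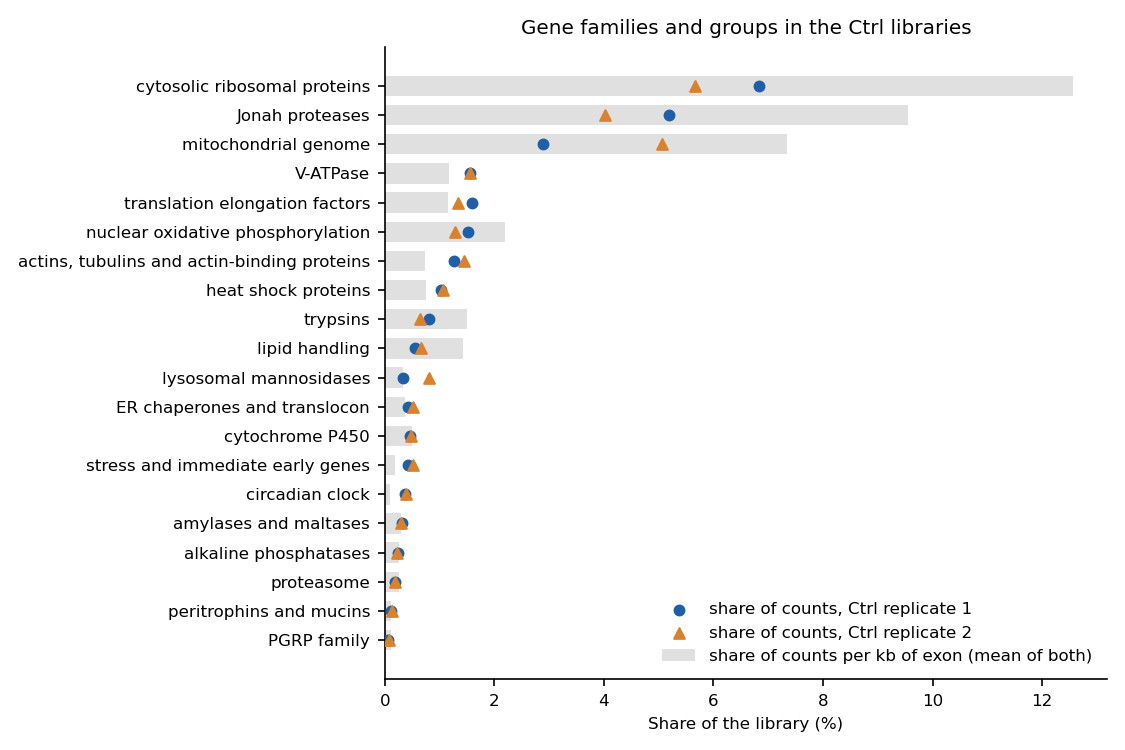
Share of the library in 20 gene families and groups, in percent on a linear axis, with a circle for Ctrl replicate 1, a triangle for Ctrl replicate 2 and a grey bar for the mean share of counts per kb of exon. Ribosomal proteins, Jonah proteases and the mitochondrial genome lead on both scales, and the mitochondrial genome shows the widest gap between circle and triangle, 2.90% and 5.05%.

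Energy genes differed by their genome of origin. The 23 genes of the mitochondrial genome held 2.90% and 5.05% of counts, led by the cytochrome oxidase subunit mt:CoI with 8549 and 15212 CPM and the large ribosomal RNA mt:lrRNA with 6408 and 11595 CPM. mt:CoIII, which overlaps mt:ATPase6, had 4265 and 6504 CPM and mt:Cyt-b 2948 and 5759 CPM. Replicate 2 was higher for all 4. The 66 nuclear genes of oxidative phosphorylation held 1.52% and 1.28%, with replicate 1 the higher. Their most abundant members were the ATP synthase subunits ATPsynC (1869 and 1740.4 CPM), blw (1969.9 and 1482 CPM) and ATPsynbeta (1674 and 1602 CPM).

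The V-ATPase, the proton pump that acidifies lysosomes and, in copper cells, the gut lumen, held 1.56% and 1.56% of counts over 18 genes and was one of the steadiest groups. Vha16-1, its membrane ring subunit, led with 5889 and 6822 CPM, followed by Vha26 (1804 and 1990.0 CPM) and the catalytic subunit Vha68-2 (1816 and 1663 CPM). Vha100-4, an a-subunit paralogue, had 323 and 261 CPM, with exons that overlap cona.

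Among cytoskeletal genes, Act5C, the cytoplasmic actin, had 3361 and 4741 CPM, or 2025 and 2796 TPM. kst, the apical heavy beta spectrin, had 3306 and 3592 CPM, alpha-Spec 1148 and 1154 CPM and beta-Spec 1148 and 1113 CPM. The giant linkers Msp300, a nesprin that ties nuclei to the cytoskeleton, and shot, a spectraplakin that joins actin to microtubules, had 5245 and 6315 CPM and 4191 and 4563 CPM. Both are very long: Msp300, with 69810 merged exon bases, moved from rank 18 by CPM to rank 850 by TPM (135 and 159 TPM), and shot from 22 to 500.

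The ranking per length favoured short genes. Of the 100 most abundant genes by CPM, 57 were also among the top 100 by TPM. The median exon length was 2738 bases for the 100 leading nuclear protein-coding genes by CPM, 940 bases for the leading 100 by TPM and 2156 bases over all 8470. RNaseMRP:RNA, the RNA of a ribosomal RNA processing enzyme, stood second by TPM (15064 and 23763 TPM). Acbp5, an acyl-CoA binding protein, moved from rank 86 by CPM to 17 by TPM (7532 and 8678 TPM).

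Of 10 metal handling genes with a row, 4 were among the 1000 most abundant, and most of the list's 9381 and 10749.9 CPM came from ferritin. The ferritin light chain Fer2LCH had 4705 and 5119.6 CPM and the heavy chain Fer1HCH 3419.6 and 4053 CPM. The genes lie next to each other on 3R (30385573 to 30390584) and their exons overlap, so reads in the overlap could count for either. The metal transporter Mvl had 663 and 850.3 CPM and the copper importer Ctr1B 495 and 528 CPM. Among metallothioneins, which bind copper and other metals, MtnC had 64.8 and 137 CPM and MtnA 3.69 and 23.1 CPM.

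Lipid handling genes held 0.562% and 0.671% of counts over 17 genes. Lsd-2, a perilipin of lipid droplets, had 1395 and 1986 CPM, Desat1, a fatty acid desaturase, 706 and 808 CPM, and LpR2, a lipophorin receptor, 468 and 483 CPM. The sterol genes were led by Npc1b, a transporter for dietary sterol uptake, with 892 and 846 CPM, against 77.7 and 96.0 CPM for its paralogue Npc1a. Per length the means were 388 TPM for Npc1b and 29.6 TPM for Npc1a.

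The 6 lysosomal mannosidases, which trim mannose from glycoproteins, were the family that varied most between the libraries among those with a mean share above 0.5% of counts. They held 0.341% and 0.810% of counts. LManVI had 1705 and 4004 CPM, LManII 865 and 2043 CPM and LManV 629.9 and 1862 CPM, each at least 2-fold higher in replicate 2, as were 52 (0.939%) of the 5539 genes at a mean of at least 10 CPM. Over the other 6 libraries the family ran from 0.257% to 0.824%, a range that spans both Ctrl values.

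Of the small-molecule defence families, 61 genes picked by their Cyp symbol, most of them cytochrome P450 genes, held 0.461% and 0.481% of counts. The cyclophilins Cyp1 and Cyp40 and the pseudogene Cyp6a15Psi share that symbol, so these are not the shares of P450 genes alone. The P450 genes were led by Cyp6d5 (1033 and 1116 CPM) and Cyp9f2 (439.6 and 433 CPM). The 29 UDP-glycosyltransferases held 0.191% and 0.203% and the 30 glutathione S-transferases 0.135% and 0.150%. In amino acid uptake, slif had 290.1 and 324 CPM and path, a growth-linked transporter, 161 and 214 CPM. Tret1-1, a trehalose transporter and the sugar transporter of the list with the most counts, had 62.1 and 91.8 CPM. Per length the means were 174 TPM for slif and 40.4 TPM for Tret1-1.

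Markers of the cell types that such a preparation can hold were examined next, as lists of genes with their sums. In bulk RNA, fewer cells of a type and less RNA per cell cannot be told apart. Enterocyte markers summed to 10563 and 11224 CPM over 13 of 13 genes, a mean of 10894 ± 468 CPM (SD, n = 2), and 9 of them were among the 1000 most abundant. In the other 6 libraries the same sum ran from 10944 to 16194 CPM, so Ctrl replicate 1 lay just below that range.

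The smooth septate junction proteins mesh, Ssk and Tsp2A had 3218 and 3716, 322 and 387 and 203 and 201 CPM. The brush border myosins Myo61F and Myo31DF, the latter the gene of the MyoIA driver, had 2060.0 and 1929 and 806 and 767 CPM. bbg, a PDZ protein of the brush border, had 1624 and 1998 CPM. These 6 were at ranks 31 to 1060 by CPM, and none differed by 2-fold between the libraries. Myo31DF overlaps asRNA:CR44224.

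The enterocyte list also holds transcription factors and transport or adhesion genes. nub (Pdm1), a POU factor of enterocytes, had 559 and 509.9 CPM, cad, the posterior homeobox factor, 461 and 425 CPM and GATAe, a GATA factor of the endoderm, 408 and 422 CPM. The list had 3 low members: Cad87A at 10.1 and 13.2 CPM, Cad99C with 2 and 1 counts and Smvt with 4 and 153 counts. Smvt, which resembles a vitamin transporter, was thus counted almost wholly in replicate 2, and it was listed at 0 in the other 6 libraries.

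Progenitor markers had a small share. Per length, the summed level was 97.7 and 117 TPM, against 4796 and 4934 TPM for the enterocyte list. Of 18 listed, 13 were matched to a row by symbol and the others (esg and Dl among them) were not analysed here. Since 117 gene IDs carried no symbol, a listed gene without a match is not shown to be absent from the counts. The 13 genes summed to 238 and 298 CPM, within the 235 to 567 CPM of the other 6 libraries. numb, a Notch inhibitor, gave 115 and 164 CPM and klu, an enteroblast factor, 69.7 and 79.2 CPM, so that these 2 carried most of the sum. zfh2, a zinc finger homeobox gene that overlaps Tdg, had 24.8 and 25.3 CPM and was the only other member at a mean of at least 10 CPM.

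The other 10 members were below 10 CPM on average. The Sox factors Sox21a and Sox100B had 2.68 and 3.14 CPM and 4.87 and 8.70 CPM, the receptor N 6.00 and 6.59 CPM, its effector Su(H) 8.03 and 5.08 CPM and the Notch target E(spl)mbeta-HLH 3.59 and 1.81 CPM. E(spl)m3-HLH had 1.77 and 2.42 CPM, E(spl)malpha-BFM 1.82 and 1.93 CPM and sna 1 and 0 counts, and E(spl)m7-HLH and E(spl)m8-HLH had no count in either library. Genes of dividing cells summed to 78.2 and 86.5 CPM over 10 genes. RnrS, a ribonucleotide reductase subunit, gave 65.1 and 71.8 CPM of this, while Cdk1, a mitotic kinase, had 2 and 5 counts and polo 5 and 12 counts.

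**Figure D3:**
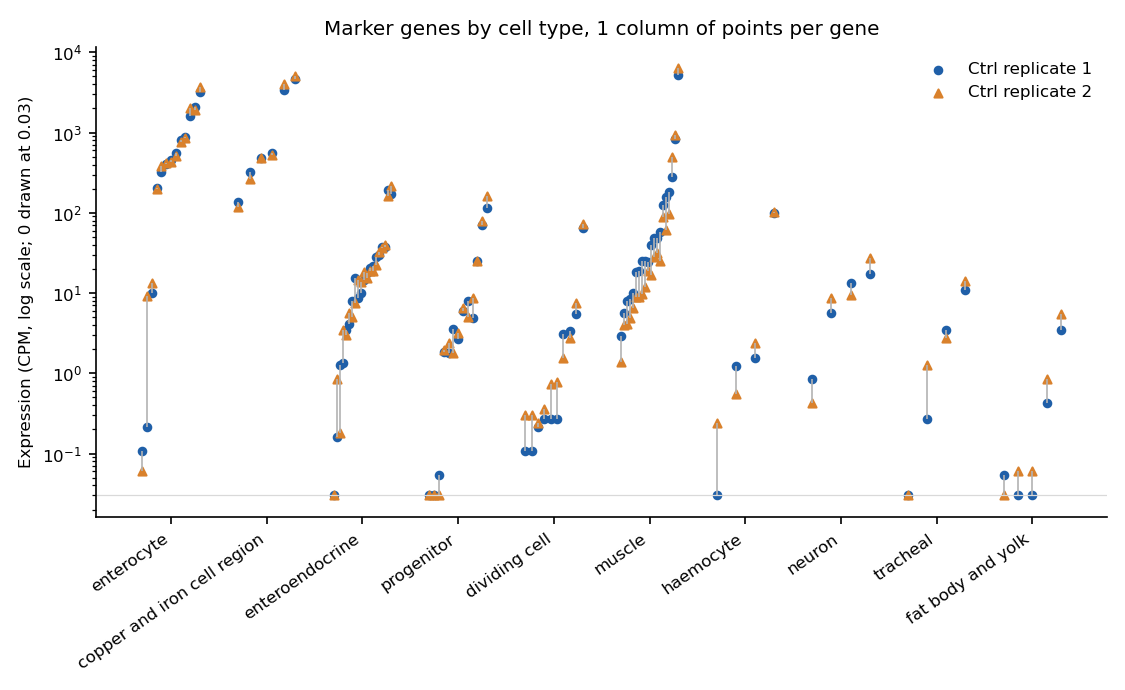
Marker genes of 10 cell types or regions in the Ctrl libraries, 1 column of points per gene, on a log CPM axis with 0 drawn at 0.03, with blue circles for replicate 1 and orange triangles for replicate 2. Most enterocyte markers lie above 100 CPM, progenitor and dividing cell markers mostly lie below 10 CPM, and most muscle genes have the circle above the triangle.

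Enteroendocrine markers were present, and their sum was even between the libraries. The 20 genes with a row of 23 listed summed to 625 and 633 CPM, or 575 and 595 TPM. The peptide hormone gene AstC had 174 and 216 CPM and IA-2, a dense core vesicle protein, 190.1 and 161 CPM. Of the other hormones, CCHa2 had 38.0 and 39.2 CPM, ITP 38.0 and 36.9 CPM, AstA 29.9 and 32.1 CPM, Orcokinin 28.2 and 22.6 CPM, CCHa1 18.0 and 15.6 CPM, Dh31 9.96 and 13.7 CPM and Mip 1.34 and 3.51 CPM.

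Tk, a tachykinin hormone of the posterior midgut, had 20.3 and 18.9 CPM and NPF 15.5 and 7.44 CPM. NPF was at least 2-fold higher in replicate 1, as the only gene of 13 in the list at a mean of at least 10 CPM. Over all 5539 genes at that level, 0.487% were at least 2-fold higher in replicate 1. pros, the factor that defines enteroendocrine cells, had 21.7 and 18.7 CPM and overlaps lncRNA:CR46008. The prohormone convertase amon had 14.3 and 18.3 CPM and its helper 7B2 7.98 and 5.08 CPM. Of the vesicle release genes, Rab3 had 8.56 and 14.7 CPM and nSyb 4.12 and 5.68 CPM, and the channel gene Ih had 3.48 and 2.96 CPM. The proneural genes tap and sc had 24 and 3 and 3 and 14 counts, and phyl had none. The sums of the list differed by only 1.01-fold between the libraries.

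Muscle was the marker list with the most members far apart between the libraries. The 20 genes with a row summed to 7152 and 8170.1 CPM, a sum dominated by Msp300, Tm1 (823 and 929 CPM) and Zasp52 (281 and 497 CPM), which non-muscle cells also use. Without these 3 the remaining 17, sarcomeric proteins for the most part, summed to 803 and 429 CPM, with replicate 1 the higher by 1.87-fold. Leaving the 3 out was chosen after the values were seen. Over the other 6 libraries this sum ran from 299.7 to 1903 CPM, so both Ctrl values lie inside that range.

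The myosin heavy chain Mhc had 2944 and 1013 counts, or 158 and 61.2 CPM, the titin-like sls 180.2 and 97.6 CPM, the projectin bt 124 and 89.9 CPM and the paramyosin Prm 39.9 and 17.0 CPM. Of the 15 muscle list genes at a mean of at least 10 CPM, 12 were higher in replicate 1, 7 of them at least 2-fold. The 3 higher in replicate 2 were Msp300, Tm1 and Zasp52, so the sum over 17 genes leaves out just those that went the other way. Over all genes, 0.487% of 5539 were at least 2-fold higher in replicate 1.

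Markers of the copper and iron cell region, which belongs to R3, were present: lab, the homeobox gene of copper cells, had 137 and 119 CPM, Ptx1 562 and 518 CPM and dve 479 and 484 CPM. With the ferritin chains and Vha100-4, the 6 genes of this list summed to 9626 and 10556 CPM, against 3803 to 7653 CPM in the other 6 libraries. Most of that sum was ferritin. Fer2LCH and Fer1HCH ran from 1493 to 3650 and from 1405 to 2750 CPM in the other 6 libraries, below both Ctrl values. Ptx1 and dve ran from 337 to 620 and from 261 to 484.5 CPM there, ranges that hold both Ctrl values. Lists for tissues outside the epithelium had small sums. The 4 haemocyte genes with a row summed to 101 and 107 CPM, nearly all from the scavenger receptor crq (98.2 and 104 CPM, overlapping ex), while Hml, a defining haemocyte gene, had 23 and 9 counts. Neuronal genes summed to 37.3 and 46.2 CPM, tracheal genes to 14.7 and 18.1 CPM with trh at 0, and fat body and yolk genes to 3.91 and 6.47 CPM. Of 8 Malpighian tubule and hindgut genes 2 had a row, and drm gave 71.7 and 72.5 CPM of their 71.9 and 73.9 CPM; of 7 germline and eggshell genes 2 had a row, with 1.98 and 4.53 CPM.

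The agreement of the replicates was then measured. Across 9012 genes with a count, Spearman's rho was 0.986. Genes are not independent replicates, so this is a description. The chi-square per degree of freedom between their counts was 59.6 with reads taken as independent molecules, and the libraries were counted as 2 samples. This checks for a repeated deposit and does not measure how far separate preparations differ. The biological coefficient of variation by edgeR was 0.200, against 0.268 within SvbAct and 0.284 within RNAiSvb on the same 8105 genes. These genes passed the filter on the Ctrl libraries alone, and Ctrl had 2 libraries against 3 in each other group. The comparison is thus not an even one.

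Of 5539 genes at a mean of at least 10 CPM, 79 (1.43%) differed by at least 2-fold, 52 (0.939%) higher in replicate 2 and 27 (0.487%) higher in replicate 1. The same share ran from 2.72% to 6.03% over the 6 pairs within the other groups. The median absolute log2 ratio was 0.20 and its 90th percentile 0.54. The median signed log2 ratio of replicate 2 over replicate 1 was -0.01.

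**Figure D4:**
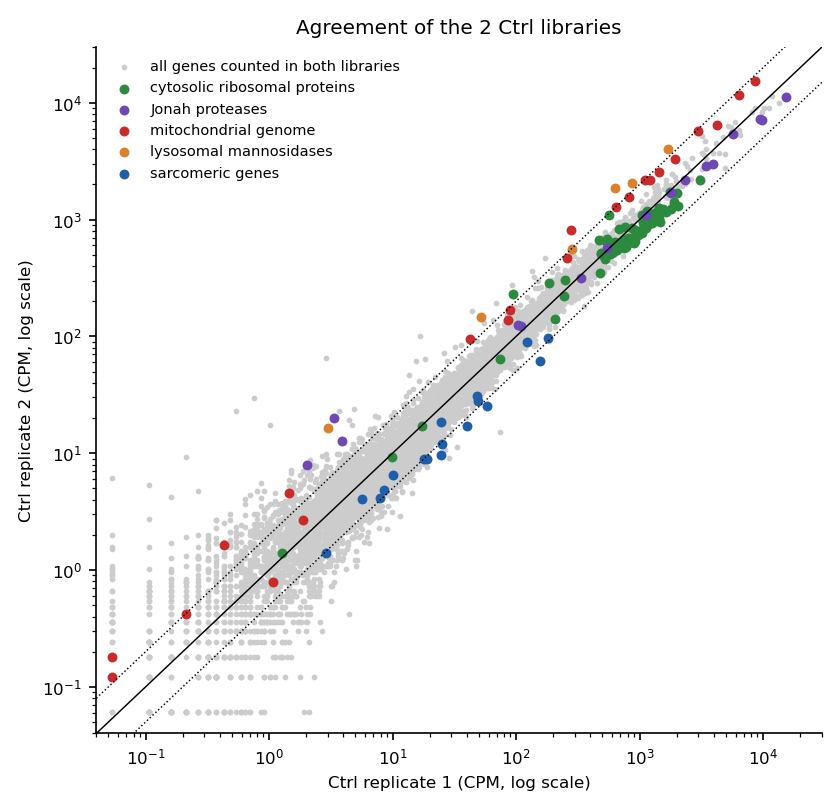
Level of each gene counted in both Ctrl libraries, replicate 1 on the x axis and replicate 2 on the y axis, both in CPM on log scales, with the line of equality and dotted lines at 2-fold. At a mean of at least 10 CPM, genes of the mitochondrial genome (red) and lysosomal mannosidases (orange) lie above the line, and sarcomeric genes (blue) lie below it. The sarcomeric set is the muscle list without Msp300, Tm1 and Zasp52, the members higher in replicate 2, left out after the values were seen. That no gene of this set lies above the line follows from that choice.

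Several gene groups lay to one side. Over all 5539 genes, 2705 were higher in replicate 2 and 2834 in replicate 1. Each of the 15 mitochondrial genome genes at a mean of at least 10 CPM was higher in replicate 2, with a median log2 ratio of 0.87, and so was each of 5 lysosomal mannosidases (median 1.24). Over the other 6 libraries the mitochondrial share ran from 2.22% to 9.29%. Genes of the stress and immediate early list were higher in replicate 2 in 10 of 10 (median 0.31), lncRNA genes in 34 of 41 (median 0.39) and lipid handling genes in 10 of 13 (median 0.29). Other lists of stress or defence genes were mixed. Of heat shock protein genes, 6 were higher in replicate 2 and 7 in replicate 1, and of antioxidant enzymes 2 and 4. Metal handling genes were higher in replicate 2 in 7 of 8 (median 0.30) and glutathione S-transferases in 12 of 17 (median 0.28). So were PGRP genes in 6 of 7 (median 0.36) and ER chaperone and translocon genes in 7 of 10 (median 0.16).

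The opposite side held the machinery of protein synthesis, among other groups. Cytosolic ribosomal proteins were higher in replicate 1 in 61 of 77 (median log2 ratio -0.21), mitochondrial ribosomal proteins in 38 of 52 (median -0.21) and aminoacyl-tRNA synthetases in 21 of 25 (median -0.23). Nuclear oxidative phosphorylation genes were higher there in 49 of 65 (median -0.18), trypsins in 7 of 10 (median -0.27) and Jonah proteases in 10 of 14 (median -0.09). Proteasome genes split evenly, 15 of 30 each way. With library totals or DESeq2 size factors in place of TMM factors, the median of all genes moved to -0.05 and 0.03. The medians of these groups, the proteasome and the heat shock proteins apart, kept their sign.

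**Figure D5:**
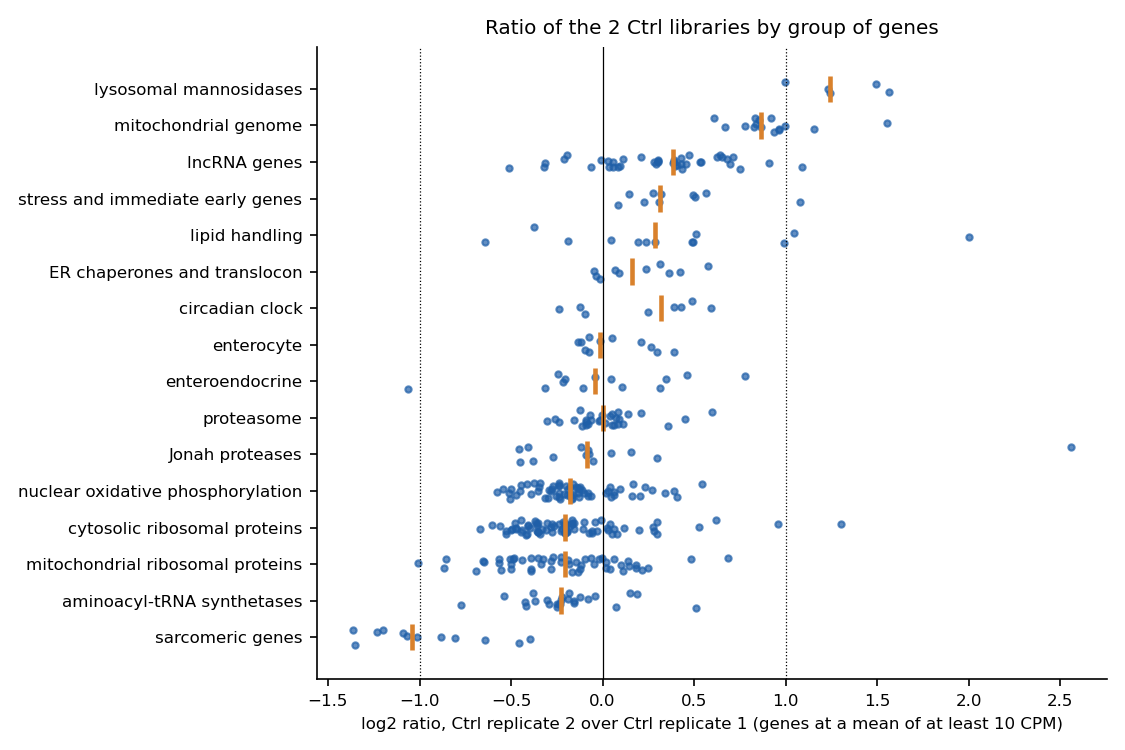
log2 ratio of Ctrl replicate 2 over replicate 1 for genes at a mean of at least 10 CPM in 16 groups, with a point per gene, an orange bar at the group's median and dotted lines at 2-fold. Sarcomeric genes sit furthest left and lysosomal mannosidases furthest right, while enterocyte, enteroendocrine and proteasome genes centre near 0. The sarcomeric set leaves out the muscle list genes that were higher in replicate 2, a choice made after the values were seen.

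Among genes at a mean of at least 10 CPM, those furthest apart were 3 enzyme genes higher in replicate 2; below that limit, Alp2 and Smvt, given above, were also counted almost wholly in replicate 2. LysD, a digestive lysozyme that overlaps its near copy LysC, had 10 and 380 counts, a ratio of 42.9-fold (95% interval 23.1 to 90.2). Alp4, which overlaps mir-4948, had 14 and 487 counts, 39.3-fold (95% interval 23.2 to 72.4). The carboxypeptidase CG12374 had 54 and 1085 counts, 22.7-fold (95% interval 17.3 to 30.4). These intervals cover counting error only. LysD was at 0 to 0.825 CPM and CG12374 at 2.18 to 1131 CPM in the other 6 libraries, so the LysD level of replicate 2 stood above all others, and that of CG12374 did not.

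The other genes of the 10 furthest apart in that direction were at 3.75-fold to 6.25-fold. MtnA had 69 and 382 counts, the chitinase Cht4 83 and 320, ImpL2, a secreted insulin-binding protein, 91 and 392 and Lsd-1, a perilipin, 289 and 1027. Lsd-1 overlaps CG10214 and ImpL2 overlaps CG46460. The snoRNA gene snoRNA:Psi28S-3342 had 314 and 1676 counts, Jon25Bi 63 and 329 and CG42807 826 and 2742.

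Fewer genes stood apart in favour of replicate 1, and by less. CG31091 had 1392 and 252 counts, a ratio of 4.89-fold (95% interval 4.27 to 5.62), and CG4830 had 532 and 152, 3.10-fold (95% interval 2.58 to 3.74). The next 8 were at 2.30-fold to 2.95-fold, and 4 of them were the muscle genes Mhc, Act87E, Prm and up. The others were CG17636, CG2017, Zfrp8 and CG32533, of which the last 3 overlap a neighbouring gene. Among the 8050 genes at a mean of at least 1 CPM, 14 were at least 10-fold apart, 11 of them higher in replicate 2.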

How the data were processed

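RNA from 8 enterocyte preparations was sequenced as single reads of 100 nt on a NovaSeq instrument after NuGEN Ovation SoLo library preparation, per the labels' protocols. The authors deposited whole-number read counts per FlyBase gene for each library. The submitters' processing notes name FastQC 0.11.5, STAR 2.5.2b, HTSeq 0.6.0, edgeR and the build dm6. The gene annotation, the counting strand, any use of molecular tags and any gene filter are not given in the sources used here, so overlapping genes and near-identical copies are uncertain. Columns were tied to samples by the description label.

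The 2 Ctrl columns were scaled to CPM with TMM factors computed over all 8 libraries in edgeR 4.0.16 (R 4.3.3), and genes were ranked by mean CPM. TPM is counts per kb of merged exons, from Ensembl release 115 on BDGP6.54, whose coordinates are printed 1-based. Symbols were found for 9060 gene IDs. The other 117 held 1.83% and 1.87% of counts and entered the scaling and the CPM ranks. They had no exon length here and so no TPM. FBgn0037636, which is among them, stood at rank 64 by CPM and could not enter the TPM ranking. Lists were matched by symbol, so these IDs could not enter a list. A listed gene said to have no row may be among them. The biological coefficient of variation came from edgeR with an intercept only, after filterByExpr, and the step was tested on simulated data. Intervals of single-gene ratios are 95% Clopper-Pearson intervals on the split of counts. Spreads between libraries of pooled animals may be partly technical.

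Members, lists and rules were chosen with earlier results of these data known. Genes were named from the 30 highest by CPM, the 20 highest by TPM, up to 6 members of each list, the enterocyte, progenitor and enteroendocrine markers, the 10 genes furthest apart each way at a mean of at least 10 CPM, the 10 most abundant noncoding genes and ovo. Members of gene clusters, genes that overlap a named gene, and further muscle, dividing cell and haemocyte markers outside these limits were named after their values were seen. The alternatives were other scalings (DESeq2 1.42.0 size factors, library totals), other lengths, gene filters and folds, and each library left out.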

Additional observations from a re-analysis of the deposited data

How the results depend on the processing

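Beside the leave-one-out values, 40 alternative values were computed, of which 20 moved by less than the limit set for them and 20 by more. For shares and sums the limit is the SD of 2 libraries, so it is wide where they differ and narrow where they agree. Lysosomal mannosidases at 0.331% of counts per kb, against 0.575% of counts, are thus below it. By counts per kb of merged exons, 57 of the top 100 genes stayed, and 56 per kb of the longest transcript. Shares of counts per kb were 12.6% for ribosomal proteins, 9.56% for Jonah proteases, 7.34% for the mitochondrial genome, 1.18% for the V-ATPase, 2.19% for nuclear oxidative phosphorylation and 1.497% for trypsins. Among nuclear protein-coding genes alone, the top 100 held 32.1%, 313 genes held 50% and the V-ATPase held 1.68%. With library totals, summed markers were 10352 CPM for enterocytes and 598 CPM for enteroendocrine cells. The muscle sum without Msp300, Tm1 and Zasp52, chosen after seeing the data, was 616 CPM. Spearman's rho was 0.978 at a mean of at least 10 CPM. The biological coefficient of variation was 0.221 without a filter and 0.282 over all 8 libraries. The number of genes apart was 445 at 1.5-fold, 10 at 4-fold and 548 at a mean of at least 1 CPM. The causes of these moves were not tested beyond each setting's own construction.

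Leaving out 1 of 2 libraries moves a mean by less than their SD in every case, so these values show the range and no stability. They ranged as 90 to 95 of the top 100 genes kept, 9.67 to 10.4% of counts in the top 10, 5.66 to 6.84% for ribosomal proteins, 2.90 to 5.05% for the mitochondrial genome, 0.341 to 0.810% for lysosomal mannosidases and 7152 to 8170.1 CPM for muscle markers. Agreement and 2-fold counts need both libraries, so no such value exists for them. No paired analysis was possible because the results come from no test between groups. Promoter motifs were planned and not run, since no promoter sequence was used here. Genes under the level of 3 counts, 0.161 and 0.181 CPM, could not be told from 0 at this depth.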

Other observations

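Of 14 stress and immediate early genes, 5 were among the 1000 most abundant and 4 were under 10 CPM, with a median rank of 2916. The 4 with the highest CPM were at ranks 92 to 215. Xrp1, a bZIP factor of the stress response, had 1336 and 1561 CPM, kay, the fly Fos, 1201 and 1455 CPM, puc, a phosphatase that JNK signalling turns on, 680.0 and 957 CPM and Atf3 661 and 939 CPM. Replicate 2 was the higher library for each, and the 14 genes of the list summed to 4365 and 5533 CPM against 4562 to 8317 CPM in the other 6 libraries. The tissue spent 10 min at 37 °C before lysis in all 8 libraries, and its part in these levels was not tested. Among heat shock genes, the constitutive chaperones Hsc70-4 and Hsp83 had 3477 and 3280.0 CPM and 2425 and 2858 CPM. The heat-inducible Hsp68 had 675 and 606 CPM and Hsp70Ab 417 and 497 CPM. Hsp70Ab is 1 of several near-identical copies, and Hsp83, Hsp68 and Hsp70Ab each overlap a neighbouring gene. In the endoplasmic reticulum, the chaperone Hsc70-3 (BiP) had 1835 and 2465 CPM and Gp93 522 and 778 CPM, with Xbp1, a factor of the unfolded protein response, at 598 and 592 CPM.

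Genes of the circadian clock summed to 3859.7 and 4090.4 CPM over 8 genes. tim, a clock repressor, had 1675 and 1568 CPM and stood at rank 79, and its partner per had 81.1 and 68.8 CPM. Per length the means were 409 TPM for tim and 29.4 TPM for per. Exons of tim overlap lncRNA:CR46495 and those of per overlap dyw. Pdp1, vri and cwo, which feed back on the clock, had 1106 and 1313, 505 and 463 and 354 and 476 CPM. No hour of dissection was used here.

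In immunity, the amidase PGRP-SC2, which degrades bacterial peptidoglycan, had 346 and 442 CPM and PGRP-LB, another amidase, 79.7 and 107 CPM. The 3 antimicrobial peptide genes with a row, Drs, Drsl3 and Drsl2, summed to 1.23 and 3.75 CPM. Among mucins of the gut lining, Mur29B had 411 and 557 CPM and Muc68E 381 and 416 CPM.

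Of noncoding genes, lncRNA:Hsromega, a nuclear RNA of the heat shock response, had 2319.6 and 3048 CPM, lncRNA:CR42862 2556 and 2657 CPM and snRNA:7SKa, which restrains transcription elongation, 1976 and 3193 CPM. The microRNA gene mir-956 had 94.3 and 222 CPM. lncRNA:CR42862 overlaps CG33229. The female sex determination gene Sxl had 582 and 683 CPM and dsx, a later gene of that pathway, 171 and 464 CPM, the latter over 2-fold higher in replicate 2 and at 234 to 559 CPM in the other 6 libraries. dsx overlaps lds. The gene ovo, which encodes Shavenbaby, had 9 and 2 counts in these control libraries.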
